A study of Drosophila melanogaster with 3 samples.

Results

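The Enhancer of split complex is a run of small genes on chromosome arm 3R that are transcribed when the Notch receptor signals. The binding of CG8159, a Drosophila melanogaster zinc finger protein for which the labels give no role, was described across 10 of its genes. They were chosen by their names in the Ensembl annotation, from a complex selected on the presence and the deposited signal of CG8159 peaks at its genes. Its peak counts, ranks and signals are therefore a description and carry no test. The 10 genes comprise 7 that encode basic helix-loop-helix proteins, named HLH, and 3 of the Bearded family, named BFM. They are 10 of 13945 annotated protein-coding genes on the 6 chromosome arms that held peaks. All peak summits between 5 kb before the first of these genes and 5 kb past the last were taken, an interval of 53.4 kb (chr3R:25992621-26046008, dm6). In the list of peaks whose ranks repeated between replicates it held 17 of 10239 summits, called sites here.

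When a Notch receptor is activated by a ligand on a neighbouring cell, its intracellular domain enters the nucleus and joins Su(H), the DNA-binding protein of the pathway, to turn on target genes. The HLH proteins of the complex are transcriptional repressors that recruit the corepressor Groucho and hold back the proneural genes, which drive cells to a neural fate. The BFM proteins bind the ubiquitin ligase Neuralized and limit its action on the Notch ligand Delta. In the fly epidermis and eye these genes take part in lateral inhibition, by which cells chosen as sensory precursors keep their neighbours from the same fate. The gene of Groucho itself, gro, lies at the right end of the complex.

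ChIP-seq (chromatin immunoprecipitation followed by sequencing) had been carried out on whole pupae of 24 h, males and females together. The flies were of a single transgenic line carrying CG8159 fused at its C terminus to GFP, so the precipitated protein is the tagged one and no other line, stage or untagged fly was compared. The precipitation was with an antibody to GFP, per the description, although the antibody label names CG8159. The 3 samples, all of 1 group, are biological replicates per the labels, with separate tissue samples of the 1 line. There is thus no comparison between conditions, and the values below are set against the rest of the genome or against each other. Whole pupae mix all tissues, so the cells in which a site was bound are unknown, and a site bound in few cells cannot be told apart from one bound weakly in many.

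Peaks had been deposited as 5 lists, of which 1 per replicate and 1 for the 3 replicates pooled held 30000 peaks each. The remaining list held the 10239 peaks whose ranks repeat between replicates by the irreproducible discovery rate (IDR). The summit of a peak is its base of highest signal. The deposited signal is the authors' value in units of their peak caller and was used only to rank peaks within a list, rank 1 being the strongest. Sites within rank 1023, the strongest 10% of the IDR list, are called strong, a limit set with the ranks known. The depth is unknown, with read numbers not given in the sources used here.

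Of the 17 sites, 7 were strong. Their sequences are shown because they carry the highest signals of the complex. Each is 61 bases of the plus strand of 3R centred on the IDR summit, from the RefSeq copy of the release 6 assembly (dm6). Capitals mark the longest unbroken run of A and T. The sites are named by the gene with the nearest start site and by the distance of the summit from it in bp, minus being upstream.

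CG43116 +380, chr3R:25996586-25996646: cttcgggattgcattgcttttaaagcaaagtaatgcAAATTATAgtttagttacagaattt

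CG43116 −264, chr3R:25997230-25997290: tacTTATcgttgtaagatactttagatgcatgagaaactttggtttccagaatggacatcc

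E(spl)malpha-BFM −1799, chr3R:26009064-26009124: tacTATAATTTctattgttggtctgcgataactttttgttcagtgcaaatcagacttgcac

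E(spl)m2-BFM −504, chr3R:26017944-26018004: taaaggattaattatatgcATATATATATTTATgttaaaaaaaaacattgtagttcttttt

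lncRNA:CR43644 −305, chr3R:26021351-26021411: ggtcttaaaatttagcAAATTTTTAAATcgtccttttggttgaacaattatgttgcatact

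E(spl)m7-HLH −373, chr3R:26036635-26036695: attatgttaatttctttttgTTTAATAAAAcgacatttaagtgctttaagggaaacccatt

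gro −150, chr3R:26042461-26042521: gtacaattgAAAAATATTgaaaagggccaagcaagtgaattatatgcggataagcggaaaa

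Within these 61 bases the A+T content lay between 63.9% at the CG43116 −264 site and 85.2% at the E(spl)m2-BFM site. The longest A/T run was 4 bases at the first of these and 14 bases at the second. Within the printed bases the 7 sites thus did not share a long run, which depends on the length shown. In windows reaching 50 bp to either side of the summit, the longest run at the strong sites was 8 to 19 bases, with a median of 12.

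The complex held 3.18 IDR summits per 10 kb, against 0.723 on arm 3R and 0.765 over the 6 arms. Among the 10239 strongest peaks of each replicate it held 17, 18 and 16 summits in replicates 1, 2 and 3, a mean of 17 ± 1.0 (SD, n = 3). The density was thus 4.16 times that of the 6 arms in the IDR list and between 3.92 and 4.41 times in the replicates. Strong peaks were more concentrated still, with 7 in the IDR list and 7 among the strongest 1023 of each replicate. Their density of 1.31 per 10 kb compares with 0.0764 over the 6 arms, a ratio of 17.1. As a census, the arms were divided end to end into 2504 windows of the same length. Of these, 33 (1.32%) held at least 17 IDR summits, with a median of 3.0 and a highest count of 26. Only 1 of the 2504 windows, on 3L at 10730989 to 10784376 (dm6), held at least 7 strong summits, with 8 of them among its 19 sites. The windows had fixed borders that can split a group of sites, and such a border falls inside the complex itself. The interval, by contrast, was placed around its genes, so these counts can make the complex look rarer than it is. A census with windows placed around groups of sites was not made. The complex was also selected with its peaks known, so the counts are a description.

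**Figure D1:**
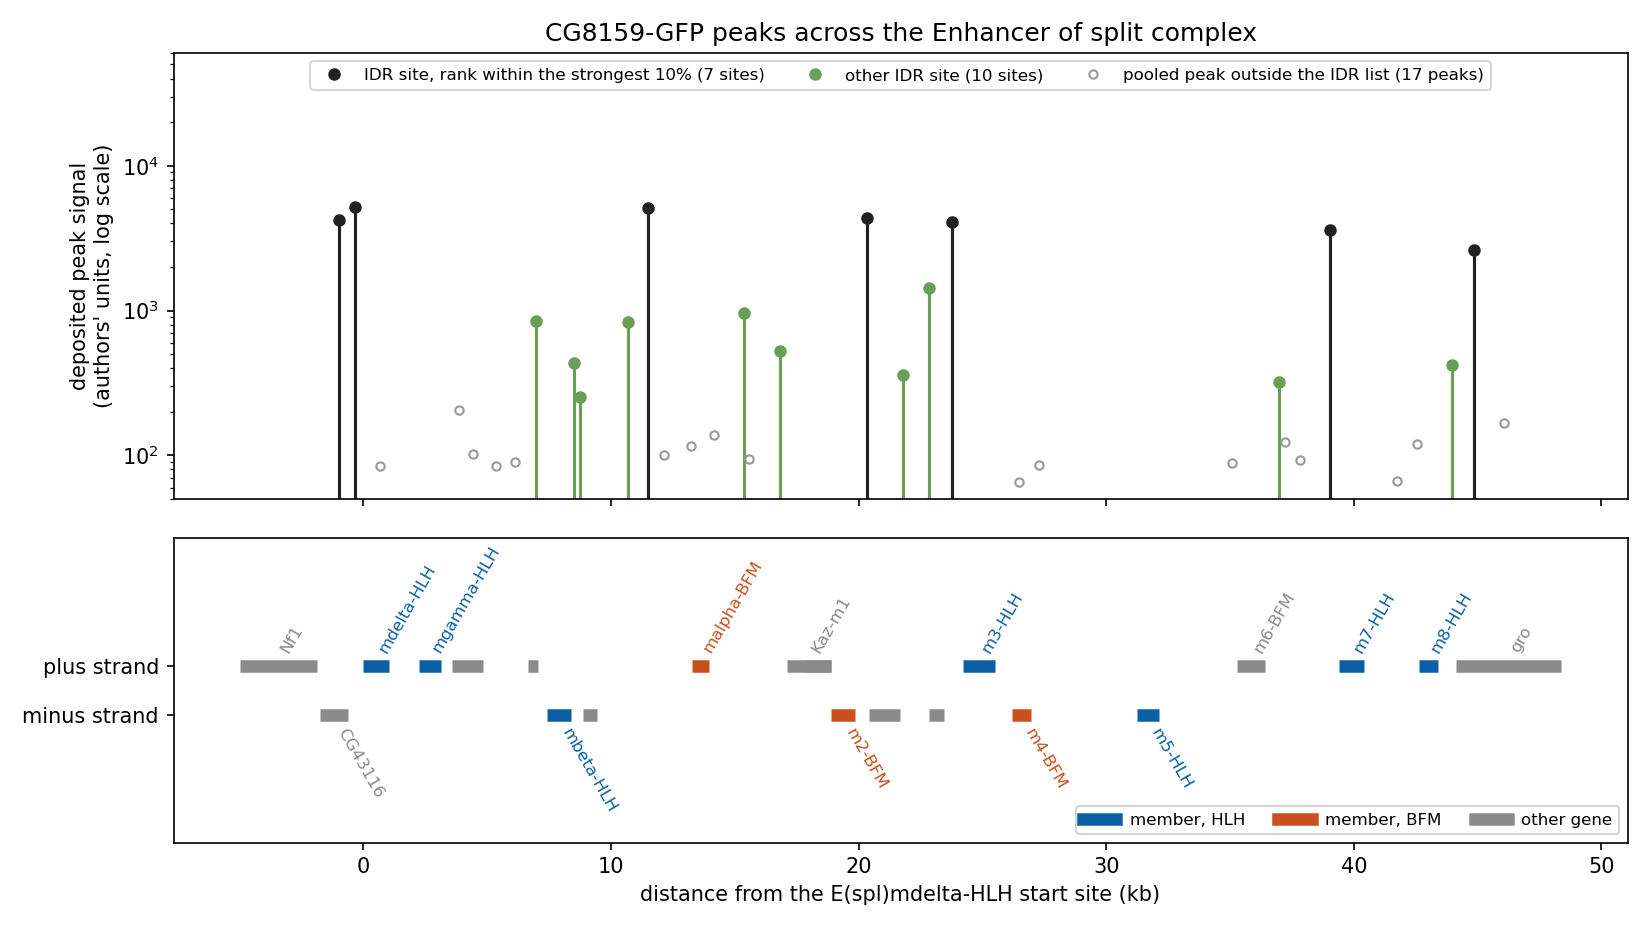
The upper panel plots the deposited signal of each peak (authors' units, log scale) against the distance of its summit from the E(spl)mdelta-HLH start site in kb, for the 7 strong and 10 other IDR sites and for the 17 pooled peaks of the interval outside the IDR list, and the lower panel shows the genes on each strand with members in colour. The 7 strong sites lie between the genes or in introns from the left end of the complex to gro at its right end, and no IDR site falls between E(spl)m3-HLH and E(spl)m6-BFM.

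The sites lay outside the transcribed parts of the members. No IDR summit fell inside any of the 10 genes. Of the 17 sites, 14 were intergenic, 2 intronic and 1 in the exon of a noncoding RNA gene, with 0 in coding sequence or untranslated regions. Of the 17 summits, 13 were upstream of the nearest start site, and 11 lay within 500 bp of it. The matching shares over all IDR summits are not given here, so these counts do not set the complex apart from the list. Only 5 of the 17 had a member as the gene of the nearest start site. In the lists of 30000 peaks a member was nearest in 14 of 34 pooled peaks and in 15 of 36, 13 of 33 and 10 of 27 peaks of replicates 1, 2 and 3. The remaining sites were nearest to Kaz-m1, E(spl)m6-BFM and long noncoding RNA genes, which lie among the members, and to CG43116 and gro, which lie just outside the first and the last of them.

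A gene was called occupied when an IDR summit lay within 500 bp of an annotated start site. Of the 10 members, 4 were occupied, against 22.9% of all protein-coding genes (3190 of 13945). All 4 were HLH genes, E(spl)mdelta-HLH, E(spl)mbeta-HLH, E(spl)m3-HLH and E(spl)m7-HLH, so that 4 of 7 HLH genes and 0 of 3 BFM genes were occupied. The same 4 genes were occupied in each replicate by its 10239 strongest peaks, where the shares of all protein-coding genes were 24.8%, 23.7% and 22.7% in replicates 1, 2 and 3. In the pooled list of 30000 peaks 7 of 10 were occupied, against 37.1% of all protein-coding genes. The added genes were E(spl)malpha-BFM, E(spl)m4-BFM and E(spl)m8-HLH. Their nearest pooled peaks were weak, with deposited −log10 q-values of 0.886, 0.483 and 0.935, where most IDR peaks stood at 4.21. The count rested on the distance and on how summits were counted. Within 250 bp 1 of 10 members was occupied, against 17.7% of all protein-coding genes, and with each summit counted only for its nearest start site 2 of 10, against 17.3%. A member set of 10 gives these shares little precision, and since signals at the members led to their choice nothing is read from these differences.

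E(spl)mdelta-HLH (FBgn0002734, chr3R:25997621-25998633, plus strand) stands at the left end of the complex and encodes an HLH repressor. Its IDR summit lay at −361 bp with a signal of 5157 and IDR rank 136, the strongest of the complex in that list. The same peak had rank 142 in replicate 1, 159 in replicate 2 and 143 in replicate 3, a mean of 148.0 ± 9.54 (SD, n = 3). This site lies between E(spl)mdelta-HLH and the divergent gene CG43116, whose start site is nearer, at −264 bp, so it counts for both genes. A further strong site of signal 4223 and IDR rank 248 lay at −1005 bp, inside an intron of CG43116, with ranks 272, 215 and 270 in replicates 1, 2 and 3. These are the only strong sites of the complex less than 1 kb apart, with 644 bp between their summits.

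E(spl)mgamma-HLH (FBgn0002735, chr3R:25999851-26000761, plus strand), its HLH neighbour, had no IDR summit within 2 kb. The nearest was the E(spl)mdelta-HLH site, at −2591 bp. The best replicate peak within 2 kb had rank 18628 in replicate 1, 7965 in replicate 2 and 11168 in replicate 3. Only that of replicate 2 was among the 10239 strongest, and it lay at +1637 bp, past the end of the gene in lncRNA:CR45037.

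E(spl)mbeta-HLH (FBgn0002733, chr3R:26005046-26006023, minus strand) was occupied by weaker sites only. Summits lay at −121 bp, with signal 436 and IDR rank 6142, and at −325 bp, with signal 253 and IDR rank 10026. The site at −121 bp had ranks 6739, 5528 and 6649 in replicates 1, 2 and 3, and that at −325 bp 9139, 15353 and 12827. A site was held by a replicate if it overlapped 1 of its 10239 strongest peaks by at least 1 bp. The −325 peak was among the strongest 10239 peaks of replicate 1 only, and the site was held by replicates 2 and 3 through the overlapping peak beside it. E(spl)mbeta-HLH was the 1 occupied member whose promoter site was not strong, and its site at −121 bp was the nearest of all 17 to a member start site.

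E(spl)m3-HLH (FBgn0002609, chr3R:26021823-26023127, plus strand) had a strong summit at −442 bp with signal 4071 and IDR rank 271. The rank was 172 in replicate 1, 629 in replicate 2 and 239 in replicate 3 (346.7 ± 247, SD, n = 3). This was the widest relative spread among the strong sites, with replicate 2 apart from the others. The nearest start site was that of lncRNA:CR43644, at −305 bp on the other strand, and a weaker site of signal 1433 and IDR rank 1695 lay at −1357 bp from E(spl)m3-HLH.

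E(spl)m7-HLH (FBgn0002633, chr3R:26037038-26038019, plus strand) had a strong summit at −373 bp with signal 3574 and IDR rank 357. Its ranks were 300, 438 and 375 in replicates 1, 2 and 3 (371.0 ± 69.1, SD, n = 3). E(spl)m7-HLH was the 1 member that was itself the nearest gene of a strong site within 500 bp.

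E(spl)m5-HLH (FBgn0002631, chr3R:26028854-26029735, minus strand) was the member farthest from any site, with the nearest IDR summit at −4865 bp. No pooled peak lay within 2 kb. Replicate 1 had 2 peaks within 2 kb, the better of rank 20141, replicate 2 had 1 of rank 22833 and replicate 3 had none.

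E(spl)m8-HLH (FBgn0000591, chr3R:26040240-26041008, plus strand), at the right end of the complex, had a weak peak at its start site that did not enter the IDR list. In the pooled list it lay at −81 bp with rank 18250, and the best peak within 500 bp had rank 22760 in replicate 1, 16762 in replicate 2 and 23956 in replicate 3. All 3 replicates thus placed a peak there, each outside its strongest 10239. The deposited −log10 q-values of these peaks were low, 0.653, 1.27 and 0.429 in replicates 1, 2 and 3 and 0.935 in the pooled list. Most IDR peaks stood at 4.21. The nearest IDR summit was at +1340 bp, between E(spl)m8-HLH and gro.

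Among the BFM genes, strong sites lay beyond the 500 bp limit. E(spl)malpha-BFM (FBgn0002732, chr3R:26010893-26011568, plus strand) had one at −1799 bp, with signal 5145 and IDR rank 138. Its ranks were 141, 132 and 166 in replicates 1, 2 and 3 (146.3 ± 17.6, SD, n = 3), and in replicates 1 and 2 it was the strongest peak of the complex. At the start site itself the pooled list had a peak at −34 bp of rank 18682, replicates 1 and 2 had best ranks of 17737 and 13264 within 500 bp, and replicate 3 had none.

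E(spl)m2-BFM (FBgn0002592, chr3R:26016514-26017470, minus strand) had a strong summit at −504 bp, with signal 4355 and IDR rank 237. Its ranks were 182, 286 and 271 in replicates 1, 2 and 3, with summits at −510, −505 and −508 bp. All 4 summits missed the limit of 500 bp by at most 10 bp, while the E(spl)m3-HLH summit at −442 bp was the occupied one closest to it. The call of E(spl)m2-BFM as unoccupied rests on that limit.

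E(spl)m4-BFM (FBgn0002629, chr3R:26023821-26024579, minus strand) had no IDR summit within 2 kb, the nearest being at +3198 bp. The pooled list had a peak at −340 bp of rank 23958. The best peak within 500 bp had rank 20992 in replicate 1 and 24402 in replicate 2, and replicate 3 had none. With E(spl)mgamma-HLH and E(spl)m5-HLH it made 3 members without an IDR summit within 2 kb.

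**Figure D2:**
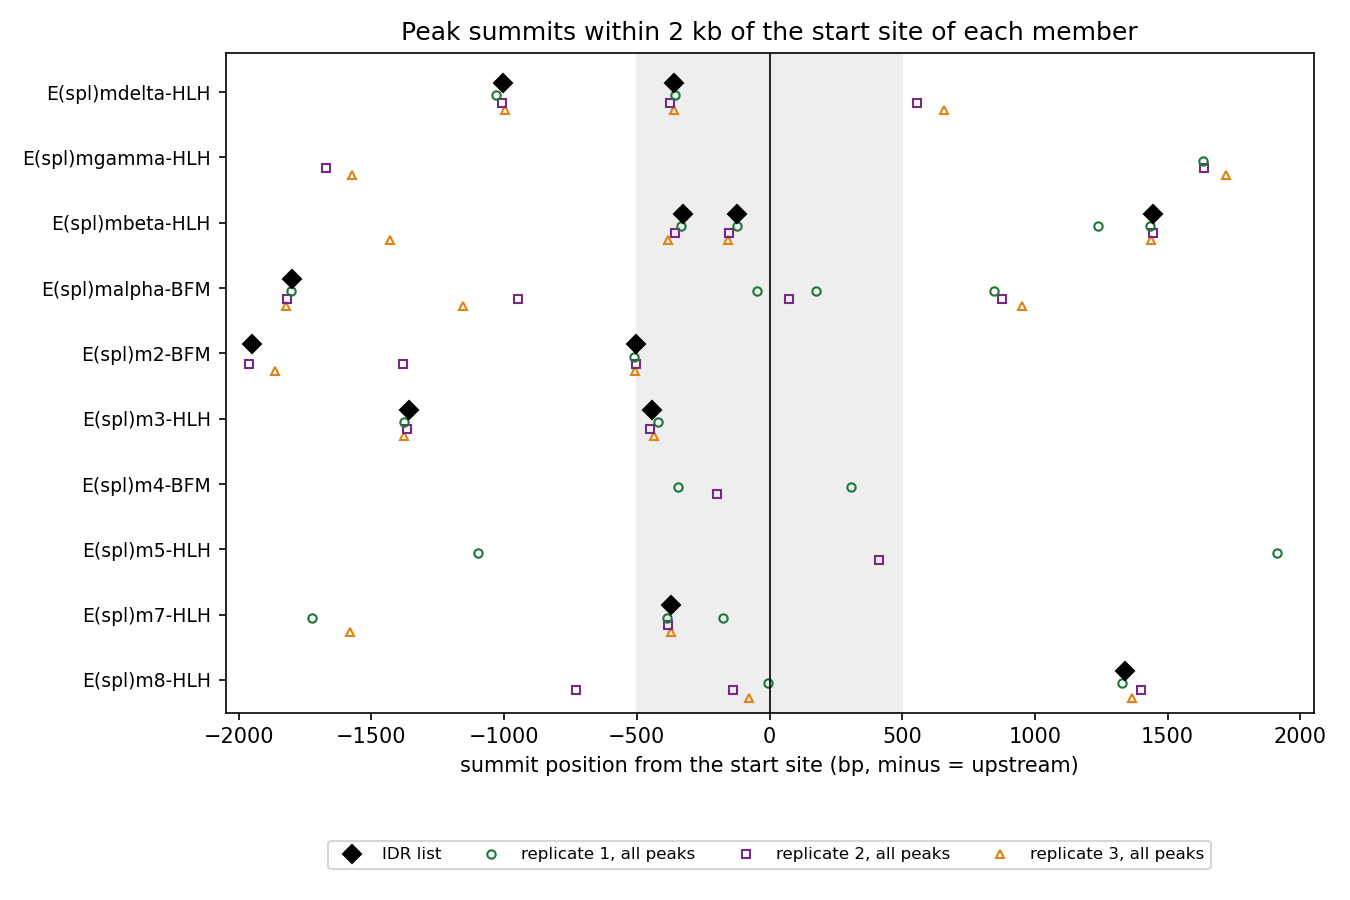
Each row is a member, and each symbol is a peak summit placed by its distance in bp from the start site of that member, minus being upstream, for the IDR list and for all 30000 peaks of each replicate, with the 500 bp either side shaded. IDR summits within the shaded range are all upstream, at E(spl)mdelta-HLH, E(spl)mbeta-HLH, E(spl)m3-HLH and E(spl)m7-HLH, and that of E(spl)m2-BFM at −504 bp lies just outside it.

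The interval also touches 11 genes that are not among the 10, and 6 of these were occupied. CG43116, a protein-coding gene, was occupied by both strong sites left of E(spl)mdelta-HLH, at +380 and −264 bp. Kaz-m1 encodes a protein with a Kazal-type protease inhibitor domain and is not of the HLH or Bearded families. It had weaker sites at −295 bp (signal 528, rank 5100) and −1729 bp (968, rank 2719). The noncoding RNA genes lncRNA:CR45038 (+300 bp, signal 851), lncRNA:CR43643 (−111 bp, 357) and lncRNA:CR43644 (−305 bp, 4071) were occupied, and a site of signal 832 lay at −1234 bp from lncRNA:CR45039. A site of signal 323 and rank 8046 lay at +1689 bp from E(spl)m6-BFM, a Bearded family gene of the complex that is not in the list of 10. It lies past the end of that gene, which was not occupied.

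The gro gene had a strong site in an intron, at −150 bp from one of its inner start sites, with signal 2634 and IDR rank 664. Its ranks were 839, 515 and 639 in replicates 1, 2 and 3. It was the weakest of the 7 strong sites. Another site, at −156 bp from its leftmost start site, had signal 421 and rank 6330. Promoter sites were thus called at gro and at 4 of the 7 HLH genes, against 22.9% of all protein-coding genes. With each summit counted only for its nearest start site, E(spl)mbeta-HLH and E(spl)m7-HLH remained, against 17.3%. Among genes of the interval that are not members, 6 were occupied, gro being 1 of them. A link between these calls was not tested.

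All 17 sites overlapped a peak among the 10239 strongest of every replicate, a property of 78.3% of IDR peaks (8018 of 10239). The rule of the IDR list selects for such repetition. The 7 strong sites ranked from 141 to 839 in replicate 1, from 132 to 629 in replicate 2 and from 143 to 639 in replicate 3. The 10 weaker sites ranked from 2027 to 9139 in replicate 1, from 1661 to 15353 in replicate 2 and from 1496 to 12827 in replicate 3. In each replicate the strong and the weaker sites did not overlap in rank, and no site of the complex ranked between 839 and 1496. The strong sites were defined by rank in the IDR list, with the ranks known. The signals of that list are those of the same replicates pooled. Their separation in the replicates is thus largely built in and is no independent evidence for the division.

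Ordered by mean rank, neighbouring sites overlapped in their range over replicates in 10 of 16 pairs. The E(spl)malpha-BFM −1799 and CG43116 −264 sites, ranking from 132 to 166 and from 142 to 159, overlapped each other and no other site. The sites at E(spl)m2-BFM, CG43116 +380, lncRNA:CR43644 −305 and E(spl)m7-HLH formed a chain of overlapping ranges behind them. The range of gro −150, from 515 to 839, overlapped only that of lncRNA:CR43644 −305, from 172 to 629. The replicate peak matched to a site was the overlapping one with its summit closest to the IDR summit. This choice favours small ranges of position, and the same range over all IDR peaks is not given here. The range of the replicate summits was 5 to 32 bp at strong sites, with a median of 18.0, and 7 to 164 bp at weaker sites, with a median of 26.5.

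**Figure D3:**
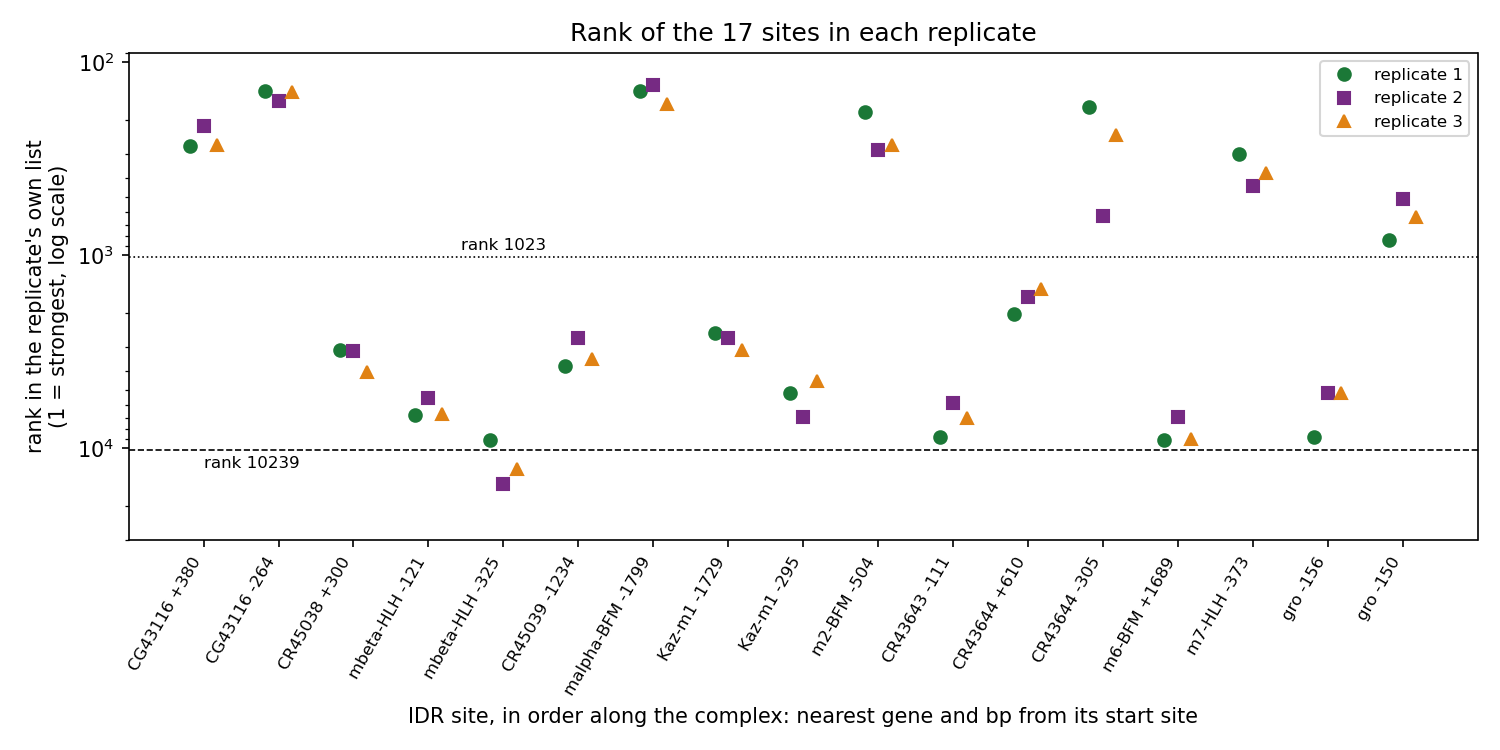
For each of the 17 sites in order along the complex, the symbols give the rank of the matching peak in the list of each replicate (log scale, strongest at the top), with lines at rank 1023 and rank 10239. Strong sites sit between ranks 132 and 839 and the others at 1496 or weaker, and E(spl)mbeta-HLH −325 is the site that passes rank 10239, in replicates 2 and 3.

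Other deposited columns separated the strong from the weaker sites less than rank, by which they were defined. The −log10 q-value stood at its maximum of 4.21 in 16 of 17 sites and in 8085 of 10239 IDR peaks, so it did not rank them. Peak width was between 378 and 544 bp at the strong sites, with a median of 465. Of the weaker sites, 6 of 10 had a width of exactly 416 bp, as did 5254 of 10239 IDR peaks, so the width says little of how far binding reached.

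The sites were not spread evenly. The longest stretch without an IDR summit, 13219 bp from the E(spl)m3-HLH site to that past E(spl)m6-BFM, contains the start sites of E(spl)m3-HLH, E(spl)m4-BFM, E(spl)m5-HLH and E(spl)m6-BFM. It held 3 pooled peaks, the best of rank 23311. Replicates 1 and 2 had 5 and 3 peaks there, with best ranks of 17677 and 22833, and replicate 3 had none. No replicate thus had 1 of its strongest 10239 peaks there. The stretch was sparse beside the rest of the complex only. Over the 6 arms there were 0.765 summits per 10 kb in the IDR list and 2.24 in each list of 30000. Left of the complex the list was emptier still, for the next IDR summit was at Lnk, 107759 bp from the leftmost site, with signal 312 and rank 8282. To the right, the next was at Cmpk, 9488 bp past the interval, with signal 495 and rank 5438. The outermost sites lay 3995 bp and 3517 bp inside the left and right ends of the interval.

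Base composition was not used in choosing the genes. In windows reaching 50 bp to either side of the summit, the median A+T content of the 17 sites was 72.3% (range 40.6 to 84.2), against 70.3% (29.7 to 96.0) over all IDR summits. The windows centred 300 bp to either side of the sites had a median of 47.0%, against 53.5% around all IDR summits. An A+T peak at the summit was thus found over the whole list, with flanks of the complex lower in A+T than those elsewhere. The strong sites had between 68.3% and 83.2%, with a median of 74.3%, and the weaker ones a median of 71.8%. The 2 sites with the lowest values were those of the E(spl)mbeta-HLH promoter, at 40.6% for −121 bp and 47.5% for −325 bp. The longest A/T run in the window had a median of 14.0 bases at the sites and 6.0 in their flanks, against 10 and 7 for all IDR summits.

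**Figure D4:**
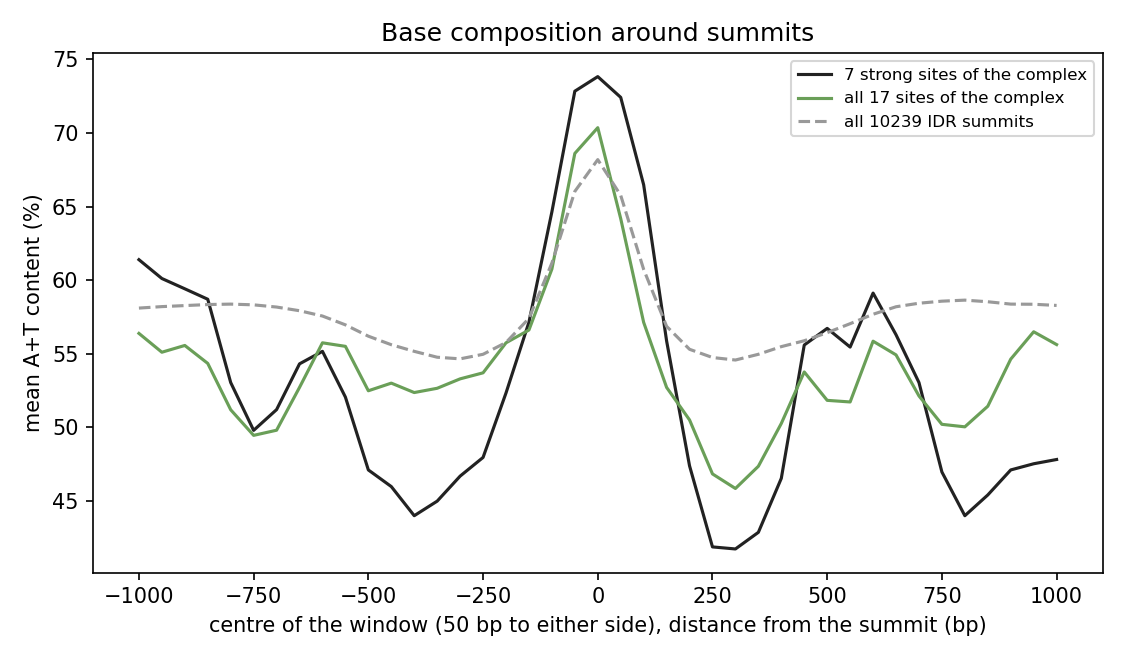
Mean A+T content in percent of windows reaching 50 bp to either side of their centre is plotted against the distance of the window centre from the IDR summit in bp, for the 7 strong sites, all 17 sites of the complex and all 10239 IDR summits. Each line peaks at the summit, and those of the complex fall below that of all IDR summits about 300 bp to either side.

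A set of 10 short motifs was searched as exact letters on both strands of the same windows. A run of 6 A (AAAAAA) was in 9 of 17 sites and 2 of 34 flanks, against 31.8% of all IDR windows and 17.9% of their flanks. The TATA box (TATAAA) was in 4 of 17 sites and 4 of 34 flanks, against 25.1% and 8.73%. The E box (CANNTG), which helix-loop-helix proteins bind, was in 4 of 17 sites and 18 of 34 flanks, against 30.9% and 43.1%. Its proneural forms (GCAGCTG and GCAGGTG) were in 0 sites and 1 flank, against 1.27% and 3.89%. The N box (CACAAG), a sequence that HLH repressors of this family bind, was in 0 sites and 3 flanks, against 3.27% and 4.75%. Over the whole list these 3 motifs were less frequent at summits than beside them, while the few matches in the complex allow no such comparison for the proneural forms and the N box. GAGAG, the core of GAGA factor sites, was in 2 sites and 7 flanks, against 9.63% and 15.9%. CGATA, the core bound by the insulator protein BEAF, was in 2 sites and 4 flanks, against 11.1% and 10.2%. Neither the DRE core (TATCGATA) nor the Zelda motif (CAGGTAG) was in a site or a flank, against 0.508% and 0.273% of all IDR windows. With 17 windows, a difference of a few sites from the share of the whole list carries no weight, and the motifs overlap in part, since CGATA lies within TATCGATA and AT-rich letters follow the base composition.

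Su(H) sites, through which Notch acts on the complex, were searched as CGTGGGAA, CGTGAGAA, TGTGGGAA and TGTGAGAA on both strands. The 1000 bp upstream of the start site held at least 1 in 8 of 10 members (80.0%), against 1378 of 13944 protein-coding genes (9.88%), the exceptions being E(spl)m3-HLH and E(spl)mdelta-HLH. Of the 4 occupied members, E(spl)m7-HLH had 3 matches and E(spl)mbeta-HLH 1, while these exceptions had none. Of the 6 members that were not occupied, all had at least 1 match. The split rests on the 500 bp limit, which E(spl)m2-BFM, with 1 match, only just missed at −504 bp. A relation between matches and occupancy was not tested, and none is read from 10 members. Within 250 bp, E(spl)m4-BFM, E(spl)m5-HLH and E(spl)m8-HLH had matches, against 2.44% of all genes, and none of these 3 was occupied. Their upstream 250 bases are shown because they carry Su(H) letters close to the start site and no IDR summit. Weak peaks outside the IDR list had summits in these bases at E(spl)m4-BFM and E(spl)m8-HLH, and none did at E(spl)m5-HLH. Each reads 5′ to 3′ on the strand of the gene and ends at the base before the start site, with capitals for the Su(H) matches on either strand (RefSeq release 6 assembly, dm6).

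E(spl)m4-BFM, chr3R:26024580-26024829, minus strand: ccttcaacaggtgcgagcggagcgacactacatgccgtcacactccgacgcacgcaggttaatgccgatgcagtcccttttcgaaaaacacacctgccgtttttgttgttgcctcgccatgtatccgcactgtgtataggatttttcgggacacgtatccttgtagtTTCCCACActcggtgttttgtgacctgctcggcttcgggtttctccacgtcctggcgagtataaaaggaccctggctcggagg

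E(spl)m5-HLH, chr3R:26029736-26029985, minus strand: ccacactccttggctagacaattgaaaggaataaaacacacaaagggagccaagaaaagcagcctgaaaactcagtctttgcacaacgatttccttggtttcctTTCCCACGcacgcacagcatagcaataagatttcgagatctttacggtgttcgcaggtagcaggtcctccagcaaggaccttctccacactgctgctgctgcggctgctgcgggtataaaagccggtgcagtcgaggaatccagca

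E(spl)m8-HLH, chr3R:26039990-26040239, plus strand: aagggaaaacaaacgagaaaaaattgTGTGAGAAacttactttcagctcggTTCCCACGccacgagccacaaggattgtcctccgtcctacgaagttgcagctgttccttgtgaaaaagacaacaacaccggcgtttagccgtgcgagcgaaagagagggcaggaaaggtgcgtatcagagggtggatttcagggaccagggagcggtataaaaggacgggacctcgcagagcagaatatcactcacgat

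The matches begin at −83 bp in E(spl)m4-BFM, at −146 bp in E(spl)m5-HLH and at −224 and −199 bp in E(spl)m8-HLH. All 3 sequences also hold TATAAA near their end. Over the members, TATAAA was found within 60 bp upstream of the start site in 8 of 10, all but E(spl)mdelta-HLH and E(spl)mgamma-HLH, against 14.5% of all protein-coding genes (2025). The 250 bases upstream had a median A+T content of 45.4% in the members (range 40.0 to 49.6), against 62.8% in all protein-coding genes. The member promoters were thus richer in G and C than the median gene.

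Distances between these Su(H) letters and the IDR summits were then measured. The 24 matches in the 1000 bp upstream of the members were at a median of 1740 bp from the nearest IDR summit, and 1 of them was within 50 bp. In the windows at the summits, Su(H) letters were in 1 of 17 sites and 5 of 34 flanks, against 0.703% of all IDR windows and 1.11% of their flanks. The 1 match was at −292 bp of E(spl)mbeta-HLH, 37 bp from the summit of the −325 site, the weakest of the 17. The sequence of that site is shown for this reason, as 81 bases of the plus strand that end 30 bases past the summit (chr3R:26006298-26006378), with capitals for the Su(H) match.

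E(spl)mbeta-HLH −325: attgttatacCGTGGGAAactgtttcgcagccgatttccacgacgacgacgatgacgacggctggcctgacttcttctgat

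Among the matches upstream of members, the only ones measured for distance, those closest to a strong site were at E(spl)m7-HLH, where matches at −644, −669 and −938 bp lay 267, 292 and 561 bp from the summit. At E(spl)m2-BFM the match at −965 bp lay 457 bp from the summit, and at E(spl)malpha-BFM the 5 matches lay 1041 to 1463 bp from it. E(spl)mgamma-HLH had 4 matches and no IDR summit within 2 kb. A match of letters is not a bound site, and Su(H) was not measured here.

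The other genes of the pathway were taken from lists written with earlier results of these data known, and are given as counts beside the 22.9% of all protein-coding genes. Of 22 genes of the Notch signal, 12 were occupied (54.5%), and 17 in the pooled list, where the share of all genes was 37.1%. The strongest sites were at numb, an inhibitor of Notch (signal 3574, −144 bp), at neur, which encodes Neuralized (2741, −224 bp), at gro (2634, −150 bp) and at aph-1, a subunit gene of the γ-secretase that cleaves Notch (2265, −406 bp), all held by the 3 replicates. The receptor gene N had a site of signal 424 at −375 bp, and Delta, the ligand gene, one of signal 320 at −103 bp that 2 replicates held. Others were mam, a coactivator gene (1441), CtBP, a corepressor gene (461), Nak (384), O-fut1, which encodes a fucosyltransferase acting on Notch (307), kuz, a metalloprotease gene (283), and lqf, which encodes epsin (254). Among the 10 not occupied were dx and fng, modifiers of Notch signalling, and Su(H) itself. In the pooled list dx and fng were occupied and Su(H) was not. The strong sites of the complex, chosen by rank, had signals of 2634 to 5157, and its 10 weaker sites had 253 to 1433. The sites of numb and neur lay within the first range and those of N and Delta within the second. The gro site is in both sets, and no order is read from these values.

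Relatives of the members outside the complex were counted in the same way. Of 5 genes of related HLH repressors, 1 was occupied (20.0%), close to the share of all genes, and 4 in the pooled list. The 1 was hairy, listed as hry, with signal 320 at −11 bp and held by 2 replicates, while cwo and dpn were not occupied. Of 4 Bearded family genes matched on 3L, 0 were occupied, BobA and Brd among them, and 3 were in the pooled list. Counting the 3 members, 0 of 7 Bearded family genes had an IDR summit within 500 bp, against 22.9% of all protein-coding genes. The count leaves out E(spl)m6-BFM, which was not occupied, and the E(spl)m2-BFM summit at −504 bp only just missed the limit. In the pooled list 2 of the 3 members were occupied too, against 37.1%. Of 11 proneural genes and their partners, 2 were occupied, and 6 in the pooled list. The 2 were da (signal 374, −99 bp), the common partner of the proneural proteins, and emc (347, −12 bp), which encodes an inhibitory partner. The proneural genes ac and amos were not. These lists are small, so their shares are counts of genes only and were not tested against the background.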

How the data were processed

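Peak lists were analysed from the step where the authors stopped. Per the deposited file lists, peaks were called on dm6 for each of 3 replicates and for the 3 pooled, against 1 control alignment, and an IDR list was derived from them. The peak caller, aligner, read filters and read depth were among the items not given in the sources used here. The authors' signal value, in units of the caller, was ranked within a list and not set side by side across lists. In most IDR peaks the deposited −log10 q-value stood at its maximum, and it was described only. Other deposited values, the summit offsets, gave the summit positions. All 30000 or 10239 rows of each list were used.

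Genes, start sites and exons came from Ensembl release 115 (dm6 coordinates), and sequence from the RefSeq release 6 assembly. A summit within 500 bp of any start site of a gene made it occupied. A site was held by a replicate if it overlapped 1 of its 10239 strongest peaks by at least 1 bp. No test was run, since there is 1 group and the genes, and the lists of related genes and motifs, were chosen with earlier results of these data known. All 10 members are described. Genes of other lists are named if among the 4 occupied ones of highest signal or the first 2 unoccupied by alphabet, and further ones were added after their values were seen. BobB and BobC were not matched to the annotation. The counting steps were tested on simulated peaks and recovered the values put in. Python 3.11.15, pandas 2.3.3, numpy 2.4.6 and matplotlib 3.10.9 were used. The numbers of sites, of occupied members, of held sites and of sites with Su(H) letters, the share of occupied genes and the median A+T content were recomputed under the alternatives given in the closing section.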

Additional observations from a re-analysis of the deposited data

How the results depend on the processing

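Of 40 alternatives over 6 results, 18 left the value within the limit set for it, 1.5 times for a count and 1 SD of the replicates for a percentage, and 22 moved it. The count of occupied members, 4, was 1 with a distance of 250 bp (E(spl)mbeta-HLH), 7 in the pooled list and 2 with each summit counted only for its nearest start site (E(spl)mbeta-HLH and E(spl)m7-HLH). It was 5 with 1000 bp, which adds E(spl)m2-BFM, and 4 to 4 without any 1 replicate. The matching share of all protein-coding genes, 22.9%, was 17.7% with 250 bp, 27.4% with 1000 bp, 13.5% in the 5119 strongest IDR peaks, 37.1% in the pooled list, 18.3% in peaks held by all 3 replicates, 17.3% with the nearest start site only and 19.2% to 19.6% without 1 replicate. All 17 sites were held by all replicates, 11 with the strongest 5119 peaks of each and 17 to 17 without 1 replicate. Su(H) letters were in 0 sites with windows of 25 bp to either side, 2 with 100 bp and 0 in the 5119 strongest IDR peaks. The median A+T content, 72.3%, was 74.5% with 25 bp to either side, 70.1% with 100 bp, 73.3% in the 5119 strongest IDR peaks, and 71.3%, 71.3% and 71.8% in the strongest peaks of replicates 1, 2 and 3. The count of 17 sites was 13 without the 5 kb flanks and 12 in the 5119 strongest IDR peaks. The causes of these shifts were not tested, apart from the smaller or larger number of peaks, bases or start sites that each setting takes.

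No paired analysis was possible because the 3 replicates form 1 group. Depth is unknown, so a peak missing from a list cannot be told apart from one below its detection. Only 1 transgenic line was used, and an untagged control line was not analysed here.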
